A study of Mus musculus with 6 samples.

Results

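The genes described here are the CDK inhibitor genes of the mouse, Cdkn2a, Cdkn2b, Cdkn2c, Cdkn2d, Cdkn1a, Cdkn1b and Cdkn1c, together with Dmrta1, the next listed gene beside Cdkn2b on chromosome 4. They are 8 of the 16281 genes in the deposited count table and were found by their symbols. They were selected on the GSK-versus-Veh differences in RNA level of these same samples, so those differences are given for them as a description, without p-values.

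The RNA came from splenic CD8+ T cells of OT1 mice on the C57BL/6 background. All 6 cultures, controls included, carried the transgene Tg(TcraTcrb)1100Mjb, which gives the T cells one receptor that recognises an ovalbumin peptide. They were activated with plate-bound anti-CD3 at 2 μg/ml and soluble anti-CD28 at 2 μg/ml with IL-2 at 20 ng/mL for 48 h, followed by 3 days of expansion in IL-2. During both phases 3 cultures received GSK2879552 (GSK) at 0.5 μM, an irreversible inhibitor of the histone demethylase LSD1, and 3 received vehicle (Veh). The stimulus was antibody and not the ovalbumin peptide, the cells were not synchronised in the cell cycle, and the age of the OT1 animals is not given in the sources used here. The comparison asks how RNA levels differ when LSD1 is inhibited while T cells are activated and expanded.

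CDK inhibitors are the brakes of the cell cycle. The INK4 proteins p16Ink4a, p15, p18 and p19 bind CDK4 and CDK6 and keep cyclin D from activating them, so that the retinoblastoma protein RB stays bound to E2F factors and S phase genes stay off. The CIP/KIP proteins p21, p27 and p57 bind cyclin-CDK complexes more widely, with p27 high in resting T cells and degraded when they are activated, and p21 under the control of p53. Cdkn2a also encodes Arf, from its own first exon and another reading frame, which holds back the p53 ubiquitin ligase MDM2. In many tissues Polycomb proteins keep Cdkn2a and Cdkn2b silent.

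The total counts lay between 18288447 and 19846720 per sample, and 11698 genes passed edgeR's filter on low counts. Levels are given as CPM, the share of each gene in the TMM-scaled total of its sample. A gene was called where edgeR's quasi-likelihood test gave a Benjamini-Hochberg adjusted p under 0.05 and the fold change was over 1.5, which 6.32% of the tested genes did, 2.22% of them higher in GSK (up) and 4.09% lower (down). The groups did not overlap, with every GSK sample above or below every Veh sample, for 46.7% of the tested genes, and the median log2 fold change (GSK minus Veh) over the tested genes was -0.00387. The CD8 T cell markers Cd3e, Cd3d, Cd3g, Cd8a, Cd8b1, Cd2 and Lck summed to between 3090 and 3220 CPM in Veh and between 3000 and 3180 CPM in GSK and were thus present in every sample. Cd3e, Cd3d and Cd3g were lower and Cd2 and Lck higher in GSK at an adjusted p under 0.05, none of them past a fold change of 1.5, and Cd3d missed that p without Veh 1 and Cd2 without Veh 2, Veh 3 or GSK 2 and with the replicate block (0.056). Of the 6 B cell markers 2 were tested, and the list summed to between 6.20 and 8.16 CPM in Veh and up to 9.21 CPM in GSK, where its lowest sample had 7.82 CPM. Cd79b made up most of it, at means of 6.51 CPM in Veh and 4.90 in GSK, and did not pass the test (adjusted p = 0.07 by edgeR with Benjamini-Hochberg adjustment). The defining markers Cd79a, Ms4a1 and Pax5 were under the filter, with group means of at most 0.360 CPM. Cd79a had 3, 1 and 0 counts in Veh and 5, 11 and 5 in GSK, and Ms4a1 0, 2 and 2 against 4, 6 and 8, so both were higher in every GSK sample at these few counts, whereas Pax5 overlapped. Cd22 was called up, at a mean of 0.409 CPM in the Veh samples and 2.60 CPM in the GSK samples. The myeloid list summed to 11.7 to 16.3 CPM in Veh and 10.3 to 13.6 CPM in GSK, with Fcgr3 lower (means 1.08 and 0.466 CPM, called down, but not without any one sample other than Veh 2 nor with the replicate block), the natural killer and CD4 list to 3.10 to 3.38 and 3.04 to 4.80 CPM, and the stromal and erythroid list, mostly Pecam1, to 74.0 to 82.8 and 59.9 to 74.4 CPM.

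In GSK, 3 neighbours on chromosome 4 stood higher, Cdkn2a and Cdkn2b at about the same fold and Dmrta1 at a larger fold from a very low level, and Cdkn1b, the p27 gene, stood lower. Cdkn2c and Cdkn2d, which encode the other INK4 proteins, and Cdkn1a did not reach a fold change of 1.5 in either direction. Cdkn1c was at a handful of counts in every sample and was not tested. Of the 7 tested genes 3 were thus called up and 1 down, and the groups did not overlap in 6 of the 7. Since this contrast was used to choose the genes, nothing is read from these counts. The median log2 fold change of the 7 was 0.21.

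**Figure D1:**
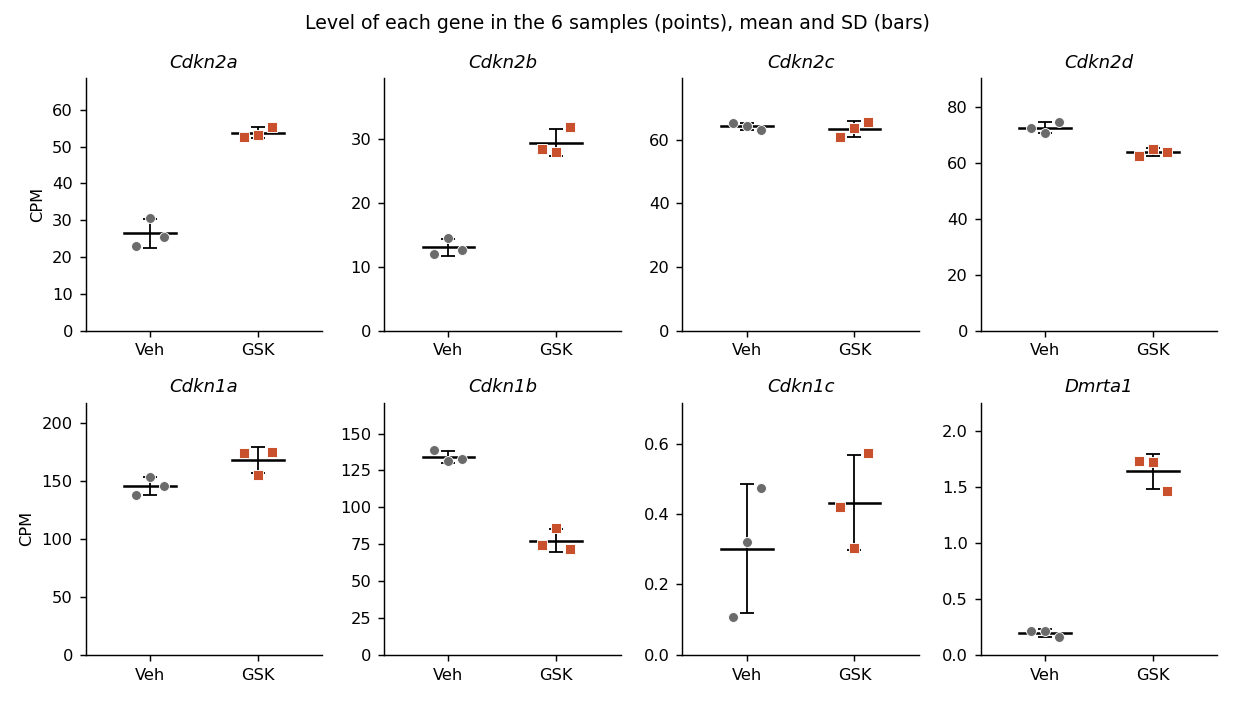
Level of each CDK inhibitor gene and Dmrta1 in CPM (y axis, linear, from 0, with its own range in each panel) in the 3 Veh and the 3 GSK samples (x axis). Points are samples, the long bar is the group mean and the error bar its SD. The GSK points lie above the Veh points for Cdkn2a, Cdkn2b, Cdkn1a and Dmrta1, below them for Cdkn2d and Cdkn1b, and overlap them for Cdkn2c and Cdkn1c.

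The DNA just before the annotated starts of the 4 called genes is shown as a description of these genes. Counts were made per gene, so no RNA difference is tied to a particular start. The windows are the 250 bases before each start in RefSeq (GRCm38.p6), printed 5′ to 3′ on the strand of the gene up to the first base of a GENCODE exon, and capitals mark matches to the motifs searched. In GENCODE the Arf exon begins 34 bases and the Cdkn2b exon 7 bases earlier than in RefSeq, so their runs end there. Cdkn2a has a pair of starts, one for Arf and one for p16Ink4a. The upper start of Cdkn2a (Arf) is on the minus strand, preceded by chr4:89294654-89294869, and the lower start (p16Ink4a) by chr4:89282193-89282442. The bases before Cdkn2b are chr4:89311040-89311282 on the minus strand, those before Dmrta1 chr4:89687948-89688197 on the plus strand, and those before Cdkn1b chr6:134920151-134920400 on the plus strand.
Cdkn2a, Arf start: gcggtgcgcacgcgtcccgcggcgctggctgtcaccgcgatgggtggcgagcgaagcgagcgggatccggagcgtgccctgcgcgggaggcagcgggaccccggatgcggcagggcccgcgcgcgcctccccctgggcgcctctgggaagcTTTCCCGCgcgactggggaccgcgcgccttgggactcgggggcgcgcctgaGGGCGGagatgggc
Cdkn2a, p16Ink4a start: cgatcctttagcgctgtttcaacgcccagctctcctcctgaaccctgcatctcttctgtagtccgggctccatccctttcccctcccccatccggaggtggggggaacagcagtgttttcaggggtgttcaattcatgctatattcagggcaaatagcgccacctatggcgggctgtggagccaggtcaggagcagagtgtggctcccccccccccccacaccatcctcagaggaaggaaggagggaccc
Cdkn2b: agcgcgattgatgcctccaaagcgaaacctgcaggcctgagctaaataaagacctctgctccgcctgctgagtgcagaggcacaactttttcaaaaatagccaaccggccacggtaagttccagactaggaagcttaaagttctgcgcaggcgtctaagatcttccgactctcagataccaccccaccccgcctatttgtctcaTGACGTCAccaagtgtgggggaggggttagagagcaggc
Dmrta1: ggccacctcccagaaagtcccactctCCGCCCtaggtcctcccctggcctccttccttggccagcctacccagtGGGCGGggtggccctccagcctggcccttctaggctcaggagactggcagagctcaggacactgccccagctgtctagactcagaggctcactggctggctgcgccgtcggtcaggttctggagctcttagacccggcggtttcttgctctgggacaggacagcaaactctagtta
Cdkn1b: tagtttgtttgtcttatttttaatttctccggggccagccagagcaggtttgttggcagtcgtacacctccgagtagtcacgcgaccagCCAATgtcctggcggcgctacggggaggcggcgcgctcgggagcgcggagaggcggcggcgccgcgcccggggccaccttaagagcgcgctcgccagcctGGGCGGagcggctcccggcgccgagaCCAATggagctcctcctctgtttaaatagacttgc

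The motifs were searched on both strands, in these and in all 32851 promoter windows of the RefSeq table. The GC box GGGCGG was in 32.7% of all windows and the CCAAT box (CCAAT) in 33.8%. The cAMP response element TGACGTCA was in 1.55% of windows and the E-box CACGTG in 6.02%. For E2F factors the form TTTGGCGC was in 0.417% of windows and the form TTTCCCGC in 0.895%. The FOXO letters TGTTTAC were in 3.17%, the core AAATCAC bound by GFI1, a repressor that recruits LSD1, in 2.75%, and the TATA box TATAAA in 12.4%. A match describes letters only, and the absence of a match says only that these letters are not in the window.

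The 5 windows differed in make-up. The Arf window of Cdkn2a was 78.4% G and C with 40 CG pairs, against a median of 52.4% and 6 pairs over all windows, and held a match to TTTCCCGC beginning 99 bases before the start and GC boxes beginning 48 and 14 bases before it, the last of them within the GENCODE exon and not printed. The p16Ink4a window, 60.0% G and C with 7 CG pairs, held no match. The Cdkn2b window was 53.6% G and C with 12 CG pairs and held the cAMP response element, beginning 46 bases before the start. The Dmrta1 window, 63.6% G and C with 7 CG pairs, held GC boxes beginning 224 and 176 bases before the start, the first of them on the opposite strand. The Cdkn1b window was 64.4% G and C with 28 CG pairs and held CCAAT boxes beginning 161 and 35 bases and a GC box beginning 61 bases before the start. No matches overlapped each other. No motif was shared by all 5 windows, and the letters of the FOXO, GFI1, E-box and TATA motifs were in none of the 10 windows of the 8 genes.

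Cdkn2a lies on chromosome 4 from base 89274473 to 89294619 (GRCm38, minus strand). In the GENCODE annotation the p16Ink4a transcript begins with an exon of 207 bases (89281986 to 89282192) and the Arf transcript with an exon of 320 bases (89294334 to 89294653), and both go on into the same exon at 89276645 to 89276985. Counts per gene add the products together, so p16Ink4a and Arf cannot be told apart in these values. Cdkn2a had 424, 572 and 485 counts in the Veh samples and 1003, 1051 and 1064 in the GSK samples, or 23.1, 30.7 and 25.5 CPM against 52.7, 53.2 and 55.5 CPM. Every GSK sample was above every Veh sample, and the spread was wider among the Veh samples, whose coefficient of variation was 14.7%, than among the GSK samples, where it was 2.78%. The means were 26.4 ± 3.89 CPM in Veh and 53.8 ± 1.5 CPM in GSK (SD, n = 3 each), a log2 fold change of 1.03 (SE 0.089). Leaving out single samples or changing the tool, scaling or filter moved it between 0.94 and 1.15.

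Cdkn2b, which encodes p15, lies 11.7 kb further along, from base 89306289 to 89311032 on the same strand. Its span overlaps Gm12610, a long noncoding RNA gene that has no value in the table used here. It had 219, 270 and 241 counts in Veh and 542, 551 and 611 in GSK, or 11.9, 14.5 and 12.7 CPM against 28.5, 27.9 and 31.9 CPM. Again the groups were apart, with the lowest GSK sample above the highest Veh sample. The means were 13.0 ± 1.32 and 29.4 ± 2.15 CPM (SD, n = 3 each), a log2 fold change of 1.17 (SE 0.093), between 1.11 and 1.26 under the alternatives. There were 1.94, 2.12 and 2.01 Cdkn2a counts per Cdkn2b count in the Veh samples and 1.85, 1.91 and 1.74 in the GSK samples. These ratios did not overlap, but the lowest in Veh (1.94) and the highest in GSK (1.91) were close. They carry counting error that is not given here, and a difference in the balance of the pair was not tested.

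Dmrta1 encodes a transcription factor with a DM domain, the DNA-binding domain of the doublesex family, and lies on the opposite strand at 89688198 to 89694766, 377 kb beyond Cdkn2b. It had 4, 4 and 3 counts in the Veh samples and 33, 34 and 28 counts in the GSK samples. That is 0.218, 0.215 and 0.158 CPM in Veh and 1.73, 1.72 and 1.46 CPM in GSK, so the gene was close to undetected in the controls and low in GSK. The ratio of the summed, scaled counts was 8.35, with an exact 95% interval of 4.46 to 17.3 that covers counting error only. The fitted log2 fold change was 3.02 (SE 0.39), between 2.89 and 3.10 under the alternatives. Dmrta1 passed the filter on low counts only through its GSK samples. In these bulk samples a gene that is on in few cells and one that is low in every cell cannot be told apart, here and for every gene below. Cd22 in the B cell list was at a similarly low level and also higher in GSK, as were Cd79a and Ms4a1 at the few counts given above, while the more abundant Cd79b was not. The part of B cells in the difference in Dmrta1 was not tested.

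The genes around this stretch of chromosome 4 were compared to see whether their levels differed too. Mtap, which encodes the enzyme that recycles methylthioadenosine, is the next listed gene below Cdkn2a, at a distance of 93.4 kb. It had 61.7, 76.2 and 70.3 CPM in Veh and 106, 83.0 and 114 CPM in GSK, with no overlap. Its log2 fold change was 0.54 (SE 0.14, edgeR, Benjamini-Hochberg adjusted p = 0.028), which is under a fold change of 1.5 and was not called. Without Veh 2 (0.61) or without GSK 2 (0.66) it passed both thresholds. The adjusted p rose to 0.079 without the filter on low counts, and Mtap also missed 0.05 when Veh 1, Veh 3, GSK 1 or GSK 3 was left out (0.065 to 0.072). It was 8.7e-05 without GSK 2, the lowest of the GSK samples, all by edgeR with Benjamini-Hochberg adjustment. Mtap to Dmrta1 spans 557.4 kb, in which these 4 are the only genes of the deposited table.

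The table listed 18 genes lying wholly or in part within 2000 kb of the start of Cdkn2b, of which 7 passed the filter. The 4 of them outside the inhibitor set were Mtap, Klhl9, Focad and Mllt3, and 2 of them passed an adjusted p of 0.05. Klhl9, a substrate adaptor of a ubiquitin ligase, had a log2 fold change of -0.082 (SE 0.064, adjusted p = 0.36 by edgeR with Benjamini-Hochberg adjustment) and Focad one of 0.019 (SE 0.055, adjusted p = 0.82). Mllt3, a chromatin reader whose start lies at -1278 kb from that of Cdkn2b, was lower in GSK, with 54.0 ± 3.97 CPM against 69.1 ± 4.89 CPM in Veh and a log2 fold change of -0.36 (SE 0.068, adjusted p = 0.0019, at most 0.016 under the alternatives). The other 11 listed genes of the window, the type I interferon genes Ifnb1, Ifna2 and Ifna4 among them, had 0 to 5 counts per sample and were not tested. Beyond Dmrta1 the next listed gene, Gm12643, had 0 to 3 counts. The genes of the window past an adjusted p of 0.05 thus stood at both signs, with higher levels at Mtap and a lower level at Mllt3.

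**Figure D2:**
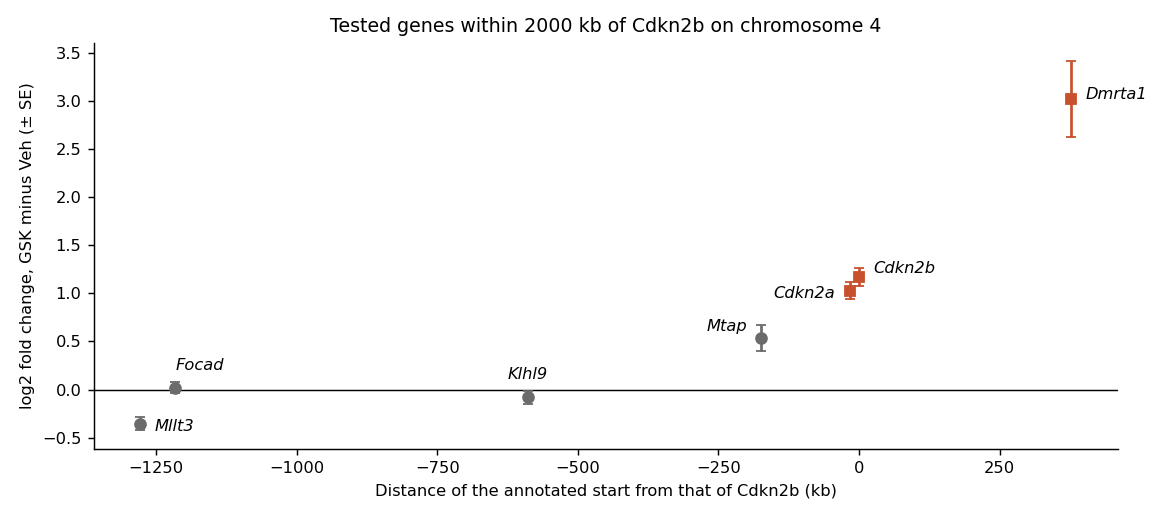
Log2 fold change, GSK minus Veh (y axis, bars ± SE), of the 7 tested genes within 2000 kb of Cdkn2b against the distance of their annotated starts from that of Cdkn2b in kb (x axis). Squares are Cdkn2a, Cdkn2b and Dmrta1, and circles are the other genes. Klhl9 and Focad lie near 0, Mllt3 below it, and Mtap, Cdkn2a, Cdkn2b and Dmrta1 above it.

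Cdkn2c and Cdkn2d, which encode p18 and p19, are the INK4 genes away from this stretch. Cdkn2c also lies on chromosome 4, but far outside the window around Cdkn2b, at 109660876 to 109666756. It had 65.3, 64.2 and 62.9 CPM in Veh and 60.7, 63.7 and 65.5 CPM in GSK, so the groups overlapped and the log2 fold change was -0.018 (SE 0.053). Cdkn2d on chromosome 9 (21288459 to 21291421) had 72.2, 70.5 and 74.4 CPM in Veh and 62.2, 64.9 and 63.8 CPM in GSK. Its groups did not overlap, yet the log2 fold change of -0.19 (SE 0.051) was small. Both varied little among replicates, with coefficients of variation from 1.89% to 3.82%.

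In the CIP/KIP family, Cdkn1a and Cdkn1b stood at opposite signs. Cdkn1b lies on chromosome 6 (134920401 to 134925525) and had 138.9, 131.2 and 132.7 CPM in Veh and 74.8, 86.0 and 71.6 CPM in GSK. Every GSK sample was below every Veh sample, at means of 134 ± 4.06 and 77.4 ± 7.56 CPM (SD, n = 3 each). The log2 fold change was -0.79 (SE 0.063), from -0.88 to -0.74 under the alternatives, with GSK 2 the closest of the GSK samples to the controls. Protein levels of p27 are set largely by degradation, which RNA does not show.

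Cdkn1a, on chromosome 17 (29090979 to 29100722), had 138.1, 153.4 and 145.7 CPM in Veh and 174.4, 155.2 and 174.8 CPM in the GSK samples. These did not overlap, but GSK 2 was close to Veh 2, and the log2 fold change was 0.21 (SE 0.056). There were 0.995, 1.17 and 1.10 Cdkn1a counts per Cdkn1b count in the Veh samples and 2.33, 1.81 and 2.44 in the GSK samples. Cdkn1c, an imprinted gene on chromosome 7 (143458339 to 143461059) that encodes p57, had 2, 6 and 9 counts in Veh and 8, 6 and 11 counts in GSK. Its groups overlapped, and a fit without the filter gave a log2 fold change of 0.51 (SE 0.63), smaller than its error.

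To compare levels between the genes, each CPM value was divided by the length of the transcript in kb. On this scale Cdkn1a was highest in Veh, at 70.1 ± 3.68 CPM per kb (SD, n = 3), followed by Cdkn2d at 50.9 ± 1.36. Cdkn2a at 29.5 ± 4.35 and Cdkn1b at 29.5 ± 0.89 came next, and their samples overlapped. They were followed by Cdkn2c at 25.9 ± 0.49, whose samples also overlapped those of Cdkn2a, Cdkn2b at 9.37 ± 0.95, Cdkn1c at 0.158 ± 0.096 and Dmrta1 at 0.0482 ± 0.0083. No other neighbours in this order overlapped. In GSK the order was Cdkn1a at 80.8 ± 5.39, Cdkn2a at 60.1 ± 1.67, Cdkn2d at 44.7 ± 0.98, Cdkn2c at 25.6 ± 0.98, Cdkn2b at 21.2 ± 1.55, Cdkn1b at 17.0 ± 1.66, Dmrta1 at 0.402 ± 0.038 and Cdkn1c at 0.228 ± 0.071 CPM per kb, with no neighbours overlapping. The ranks depended on the length used. With the exonic length, which covers every exon of the gene, Cdkn2d was at rank 1 in Veh (46.0 CPM per kb) and Cdkn1a at rank 2 (41.0), Cdkn2a was at rank 5 in Veh and 2 in GSK, and Cdkn1b at rank 3 in Veh and 6 in GSK. With the coding length Cdkn1b was at rank 2 and Cdkn2a at rank 5 in both groups. The Cdkn1b transcript has 4552 bases, of which 591 are coding, and that of Cdkn2a 895 bases, of which 507 are coding.

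Summed over the 7 inhibitor genes, the levels per kb were 208, 223 and 215 CPM per kb in the Veh samples and 248, 245 and 256 in the GSK samples. With the coding length these sums overlapped, at 875, 911 and 887 in Veh and 915, 904 and 937 in GSK. The INK4 genes made up 53.7% ± 0.22 of the sum per kb of transcript in Veh and 60.7% ± 1.13 in GSK (SD, n = 3 each). The CIP/KIP genes together were at 97.0, 103 and 99.4 CPM per kb in Veh and 100.5, 93.7 and 100.1 in GSK, so that their sums overlapped on this scale. With the coding length they were lower in every GSK sample, at 524.6 to 543.9 CPM per kb in Veh and 471.2 to 492.5 in GSK, and likewise with the exonic length, at 69.4 to 72.2 and 62.7 to 65.7. Within the sum per kb of transcript, the share of Cdkn2a was 13.7% ± 1.55 in Veh and 24.1% ± 0.31 in GSK. That of Cdkn1b was 13.7% ± 0.86 and 6.83% ± 0.81. The Cdkn2a counts include Arf, which is not a CDK inhibitor, in a part that these values do not give. An unknown part of the INK4 share and of the sum may thus be RNA of no CDK inhibitor. With coding lengths the INK4 share was lower but stood the same way, at 40.2% ± 0.11 and 47.3% ± 1.01.

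**Figure D3:**
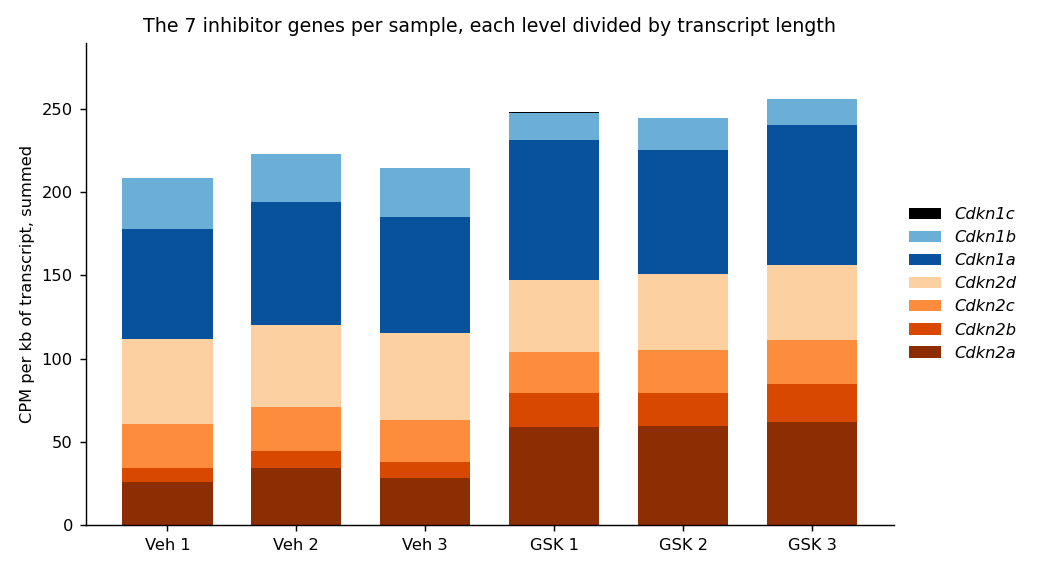
Levels of the 7 CDK inhibitor genes in each sample (x axis), stacked, in CPM per kb of transcript (y axis, linear, from 0). Orange and brown parts are INK4 genes, blue and black parts CIP/KIP genes. The Cdkn2a part includes Arf, which is not a CDK inhibitor. The GSK bars are taller than the Veh bars, which with coding lengths would overlap, with larger Cdkn2a and Cdkn2b parts and smaller Cdkn1b parts.

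For each gene with a mean count of at least 50, likeness was measured as the root mean square difference of log2 CPM, centred on each gene's mean, over the 6 samples and among 10176 genes. The nearest to Cdkn2a were Inka2 (0.086), Cdkn2b (0.088) and Ptgfrn (0.089). Those to Cdkn2b were Gadd45g (0.063), which encodes a stress-induced growth arrest protein, Eomes (0.085), a T-box factor of CD8 T cells, and the cytokine gene Tnf (0.086), with Cdkn2a at rank 5 (0.088). Nearest to Cdkn1b were Ahnak (0.046), Serpini1 (0.048) and the antiproliferative gene Btg2 (0.050). For Cdkn1a they included Pcbp1 (0.018) and Mrpl2 (0.021), for Cdkn2c they were Trappc8, Gtf3c2 and Rab3gap1, at 0.018 to 0.019, and for Cdkn2d Cpne1, Prelid1 and Gnb2, at 0.010 to 0.017. The measure takes in the GSK-minus-Veh difference on which the members were chosen, so genes of like fold change come out near. The log2 fold changes of the nearest genes to Cdkn2b were 1.15, 1.08 and 1.17, and to Cdkn1b -0.785, -0.773 and -0.743. All pairs share the same 6 libraries, and the likeness is a description only.

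Nearest listed genes on either side of the other members were compared as well. Of the 12 neighbours that are no members, 8 were tested, 3 were higher in GSK and 1 was lower at an adjusted p under 0.05, against 16.6% of all tested genes higher and 15.5% lower. Apart from Mtap, these were Kri1 beside Cdkn2d (log2 fold change 0.13, adjusted p = 0.04), Srsf3 beside Cdkn1a (0.14, adjusted p = 0.04) and Apold1 beside Cdkn1b, all by edgeR with Benjamini-Hochberg adjustment. Apold1 had 3.92, 2.74 and 3.68 CPM in Veh and 1.84, 1.77 and 1.51 CPM in GSK, a log2 fold change of -1.01 (SE 0.24, adjusted p = 0.006 by the same test). Gpr19, on the other side of Cdkn1b, was at 8.35 ± 0.20 and 8.50 ± 1.23 CPM and did not pass the test (adjusted p = 0.91 by edgeR). Rnf11 and Faf1 beside Cdkn2c and Ap1m2 beside Cdkn2d did not pass it either. Neither Kri1 nor Srsf3 reached a fold change of 1.5, and they missed the adjusted p under 8 and 6 of the 11 alternatives. The count of neighbours past the test was 1 without any one of Veh 1, Veh 3, GSK 1 and GSK 3 and 2 without Veh 2. Rab44, Kcnq1 and Slc22a18, beside Cdkn1a and Cdkn1c, had under 0.5 CPM in every sample and were not tested.

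The list of G1 and S-phase CDKs and cyclins also holds Cdc25a, Cdk7, Ccnh and Mnat1, so it is wider than the targets of the inhibitors. It gave 4 genes higher and 0 lower in GSK at an adjusted p under 0.05 among the 12 tested of 13 listed. Its median log2 fold change was 0.034. Over all tested genes 16.6% were higher and 15.5% lower at that adjusted p. These are the shares to set beside the counts of this list and the lists below, which are a description only. Cdk6, the INK4 target kinase, had means of 355 ± 15.2 CPM in Veh and 462 ± 21.7 in GSK (log2 fold change 0.38, SE 0.046, adjusted p = 7.6e-05). Ccnd2, a D-type cyclin, had 434 ± 23.5 and 579 ± 7.85 CPM (0.42, SE 0.042, adjusted p = 2.5e-05). Both were tested with edgeR and Benjamini-Hochberg adjustment. Ccnd3 (0.15, adjusted p = 0.011), which overlaps Bysl, and the phosphatase gene Cdc25a (0.35, adjusted p = 0.014) were the others. Cdc25a missed the threshold when any one of Veh 1, Veh 3, GSK 1 and GSK 3 was left out, with an adjusted p of up to 0.06 by edgeR. No gene of this list reached a fold change of 1.5. Cdk4 (0.028, adjusted p = 0.66), the cyclin A gene Ccna2 (0.0042, adjusted p = 0.94) and Cdk2 (-0.047, adjusted p = 0.5) did not pass the test, and Ccnd1 was under the filter.

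In the RB and E2F family, 2 of the 13 genes tested were higher and 3 lower, at a median of 0.12. E2f3 (log2 fold change 0.29, adjusted p = 0.0021) and Tfdp1 (0.24, adjusted p = 0.0058), the partner of E2F proteins, were higher by edgeR with Benjamini-Hochberg adjustment. Tfdp2, the other partner, was called down, at 35.5 ± 1.57 CPM in Veh and 23.1 ± 1.76 in GSK (-0.62, SE 0.077, adjusted p = 9.3e-05). Rb1 (-0.20, adjusted p = 0.0082), which overlaps Lpar6, and E2f2 (-0.16, adjusted p = 0.013, or 0.06 without Veh 3) were lower without reaching a fold change of 1.5. The other 8, E2f1, E2f4 and Rbl2 among them, did not pass the test.

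Of 19 tested genes of the p53 list (20 listed), 7 were higher and 4 lower, at a median of 0.058. Trp53 itself was at 186 ± 6.25 CPM in Veh and 194 ± 7.90 in GSK and did not pass the test (0.058, adjusted p = 0.37). Aen, an apoptosis-enhancing nuclease, was called up (39.0 ± 2.36 and 66.5 ± 5.52 CPM, log2 fold change 0.77, SE 0.071, adjusted p = 1.2e-05), as was Phlda3 (0.66, adjusted p = 0.00054). Zmat3 (0.53), Bax (0.46), Sesn2 (0.42), Ccng1 (0.41) and Mdm2 (0.21), the gene of the ligase that Arf holds back, were higher below a fold change of 1.5, all at an adjusted p of at most 0.011 by edgeR with Benjamini-Hochberg adjustment. Without Veh 1 the adjusted p of Mdm2 was 0.06. Called down were Btg2 (88.4 ± 3.59 and 52.8 ± 7.02 CPM, -0.74, adjusted p = 8.9e-05) and Sesn1 (-0.60, adjusted p = 4e-05). The death gene Bbc3 (-0.44, adjusted p = 0.0088) and the death receptor gene Fas (-0.39, adjusted p = 0.012) were lower too, so members of this list stood at both signs.

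Polycomb genes and other known regulators of the INK4 genes gave 2 higher and 8 lower among 21 tested of 22 listed, at a median of -0.073. None was past a fold change of 1.5. Bmi1, a classical repressor of Cdkn2a (47.0 ± 2.97 and 56.8 ± 2.62 CPM, log2 fold change 0.28, adjusted p = 0.0056), and Eed of the PRC2 complex (0.39, adjusted p = 0.0003) were higher by edgeR with Benjamini-Hochberg adjustment. The lower genes included Ezh1 (-0.51, adjusted p = 0.0032), Cbx7 (-0.34, adjusted p = 0.01), which overlaps Apobec3, Phc1 (-0.32, adjusted p = 0.024), Phc3 (-0.17, adjusted p = 0.036) and Cbx6 (-0.15, adjusted p = 0.036). The demethylase genes Kdm6b (-0.30, adjusted p = 0.014) and Kdm2b (-0.26, adjusted p = 0.0094) and the Cdkn2a activator gene Ets1 (-0.18, adjusted p = 0.011) completed them. Ezh2, Suz12 and Phc2 did not pass the test. The count of lower genes was 3 without Veh 1 and 5 without either GSK 1 or GSK 3. Ets1, Kdm6b, Phc1, Cbx6 and Phc3 each missed the threshold of the edgeR test without Veh 1. Phc1 also missed it without Veh 3, GSK 1 or GSK 3, Phc3 and Cbx6 without Veh 2, GSK 1 or GSK 3, Kdm6b without Veh 3, and Cbx6 with the replicate block and with DESeq2. Over these alternatives the highest adjusted p was 0.061 for Ets1, 0.073 for Kdm6b, 0.1 for Phc1, 0.12 for Cbx6 and 0.17 for Phc3.

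The genes of the ubiquitin ligases that act on p27 and p21, with FOXO, MYC and MIZ1 as factors at their promoters, gave 1 higher and 2 lower among 16 tested, at a median of 0.024. Foxo3, a factor that drives Cdkn1b, was called down. Its levels were 86.3 ± 1.75 CPM in Veh and 47.4 ± 3.56 CPM in GSK, a log2 fold change of -0.86 (SE 0.060, edgeR with Benjamini-Hochberg adjustment, adjusted p = 1.2e-06). Foxo4 was lower (-0.31, adjusted p = 0.0051) and Cul1 higher (0.23, adjusted p = 0.0074, or 0.056 without GSK 1) by the same test. Skp2 (0.13, adjusted p = 0.29), the p27 receptor of the ligase, Foxo1 (-0.065, adjusted p = 0.45) and Myc (0.17, adjusted p = 0.091) did not pass it.

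Among 15 genes of S and M phase, 2 were higher and 1 lower, at a median of 0.087. The replication helicase genes Mcm2 (280 ± 7.43 and 341 ± 21.9 CPM, log2 fold change 0.28, adjusted p = 0.0009) and Mcm3 (0.16, adjusted p = 0.021) were higher, and the proliferation marker Mki67 was lower (1700 ± 104 and 1510 ± 43.9 CPM, -0.17, SE 0.042, adjusted p = 0.0077), by edgeR with Benjamini-Hochberg adjustment. Top2a (-0.080, adjusted p = 0.051) and Mcm6 (0.045, adjusted p = 0.39) did not pass the test, nor did the M phase genes Ccnb1, Ccnb2, Cdk1, Bub1, Aurkb and Plk1. The count of higher genes was 7 without GSK 2 and 1 without any one of Veh 1, Veh 3, GSK 1 and GSK 3, where Mcm3 missed the threshold (adjusted p of up to 0.1). Of the genes named like the inhibitors that are none of them, Cdkn2aipnl was higher (0.24, adjusted p = 0.0014), while Cdkn2aip (-0.14, adjusted p = 0.24) and the phosphatase gene Cdkn3 (0.024, adjusted p = 0.82) did not pass the test.

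**Figure D4:**
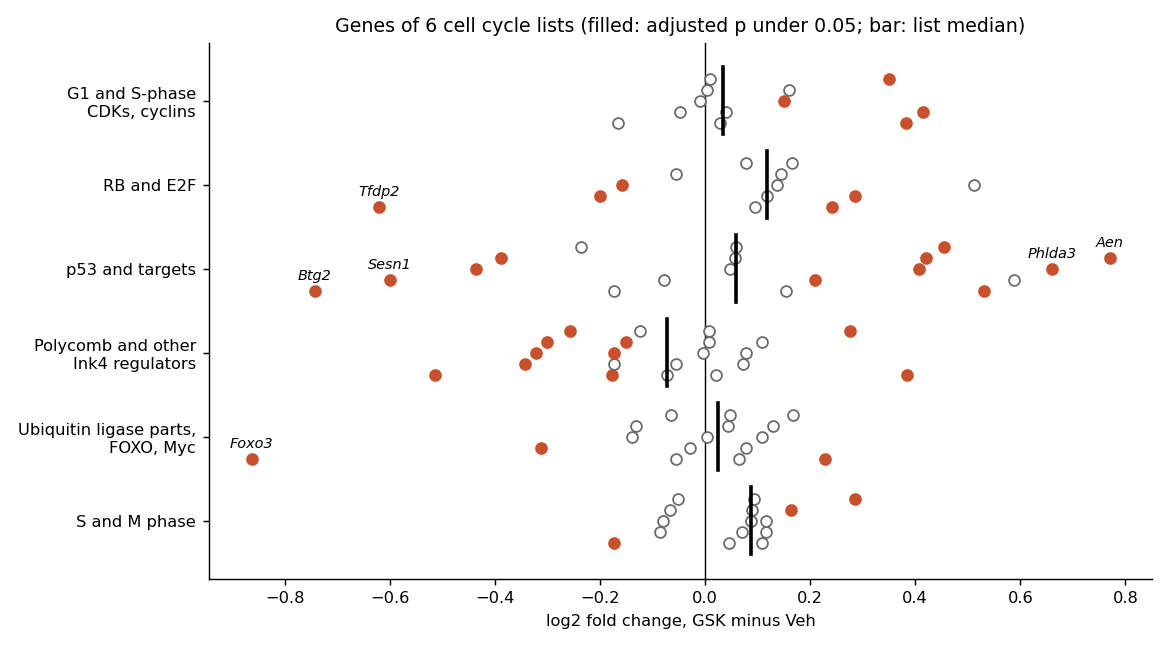
Log2 fold change, GSK minus Veh (x axis), of each tested gene in 6 lists (rows): G1 and S-phase CDKs and cyclins, RB and E2F, p53 and its targets, Polycomb and other regulators of the Ink4 genes, ubiquitin ligase parts with FOXO and Myc, and S and M phase genes. Filled points passed an adjusted p of 0.05, bars are list medians, and named points are past a fold change of 1.5 as well. The medians lie between -0.073 and 0.12, and the named genes are Tfdp2, Sesn1, Btg2 and Foxo3 below 0 and Phlda3 and Aen above it.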

How the data were processed

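RNA was measured in 6 cultures of mouse CD8+ T cells, 3 per group. Per the labels, the authors built stranded poly(A) libraries. The submitters' processing notes name Trimmomatic, HISAT2 (version 2.1.0), HTSeq (version 0.11.2), Cufflinks (version 2.2.1), DESeq2 (version 1.22.2) and GRCm38. The deposited values are whole counts per gene, without normalization. The annotation release and the strand setting of the counting are not given in the sources used here, so overlapping genes are uncertain. Overlaps are pointed out above only for some genes. Cdk4, Cdk2, Ccna2, Skp2, E2f1 and Rbl2 are among the others that overlap a gene of the deposited table.

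The groups were tested with edgeR 4.0.16 under R 4.3.3 by the robust quasi-likelihood test, after TMM scaling and filterByExpr, with Benjamini-Hochberg adjustment over 11698 genes. Called genes passed 0.05 in adjusted p and exceeded 1.5 in fold change. The test was checked on simulated counts with the same dispersion in every gene. Changes were put only into genes of higher counts, so the check does not cover genes at few counts such as Dmrta1. With 3 samples against 3 the smallest exact permutation p is 0.1, so single genes were tested only in this fit. Totals of 18288447 to 19846720 counts leave genes such as Cdkn1c and Dmrta1 with wide counting errors. Log2 CPM used a prior count of 2.

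The members, lists and tests were chosen with earlier results of these data known. Named were the 8 members, each list gene past an adjusted p of 0.05 (and up to 3 of the highest otherwise), the nearest listed genes, and the 3 tested genes most like each member. Mllt3, Klhl9 and Focad, further genes that did not pass the test, and the B cell markers were named after their values were seen. Some genes that these rules would name are not reported here. The labels number the replicates 1 to 3 in both groups. The paper names 3 separate OT1 mice as the source of the cells and gives 3 mice per group, but not whether same-numbered cultures share one. Cultures of both groups may come from the same mice, which the main test did not pair. The p-values thus measure the spread between these samples. Replicates differed beyond sampling noise (chi-square per degree of freedom 4.08 to 9.42).

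Coordinates and promoters came from RefSeq (GRCm38.p6), in which all 8 members matched, and exons and lengths from GENCODE. Alternatives were DESeq2 (version 1.42.0), RLE size factors, 2 other filters, the replicate block, the adjusted p alone, leaving out each sample, other lengths, and, added after seeing the data, the window of 2000 kb. The set tests, the ChIP-seq and the flow cytometry of the study were not used here.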

Additional observations from a re-analysis of the deposited data

How the results depend on the processing

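The members were selected on this contrast, so their calls under the alternatives are not given as a sign of stability. The log2 fold change of Cdkn2c, which was not called, lay between -0.045 and 0.0096, and those of Cdkn2d and Cdkn1a between -0.20 and -0.17 and between 0.17 and 0.26. With the adjusted p alone, 1941 genes were higher and 1819 lower in place of 260 and 479. Among the lists, the Polycomb list had 3 to 8 lower genes when single samples were left out, the ubiquitin list 0 to 1 higher genes and the S and M phase list 1 to 7, and of the neighbouring genes 1 to 5 passed the test in place of 4. With the filter of 1 CPM, 2 S and M phase genes were lower in place of 1, and without a filter 2 neighbouring genes passed. With the replicate block 2 neighbouring genes passed in place of 4 and 2 ubiquitin genes were higher in place of 1, and Cbx6, Cd2, Fcgr3, Kri1, Srsf3 and Mrpl2 missed the adjusted p. No other named gene past the adjusted p lost it with the block. The further ubiquitin gene is not named here, and not every named gene that did not pass was followed under the block. Same-numbered samples did not all deviate together, with correlations of -0.051, -0.081 and 0.16, so the numbers were not taken as pairs. The cause of these shifts was not tested. Of 61 named genes past the adjusted p, 17 lost it under at least 1 alternative. Depth limits Dmrta1, at 3 or 4 counts per Veh sample, and Cdkn1c, at 2 to 11 counts per sample. The order of levels per kb changed with the length used.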
